A study of Mus musculus with 12 samples.

Results

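The machinery that copies the genome was followed through 46 of the 47069 genes in the count table, listed by their known function with earlier results of these data known. They cover origin licensing, helicase activation, the replicative polymerases, the sliding clamp and its loader, maturation of the lagging strand, single-strand DNA binding and fork protection. All 46 had reads and all 46 passed the filter on low counts, which kept 16157 genes. The cells came from liver cancer organoids, 3D cultures grown from liver tumors that the carcinogen diethylnitrosamine induced in *Lgr5-DTR-GFP* mice on the C57BL/6 strain. In these mice GFP and the diphtheria toxin receptor are driven by the *Lgr5* promoter, so GFP reports promoter activity, and all 4 groups carry this allele (genotype LGR5-DTRGFP+). Cells were sorted by GFP into LGR5+ and LGR5- populations, each either untreated or treated with 5-FU, which gave 4 groups of 3 libraries. 5-FU (5-fluorouracil) is a pyrimidine analog that blocks thymidylate synthesis and is incorporated into RNA and DNA. The study's methods give the animals' age at the first carcinogen injection, a range of times to tumor collection, and a 5-FU dose and timing for organoid drug assays, but tie none of these to the sequenced libraries. Whether the libraries of a group came from separate cultures or animals is not given in the sources used here, so p-values measure only the spread between these libraries.

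As background, a cell licenses its origins of replication in G1 phase. The origin recognition complex (ORC) marks the DNA, CDC6 and CDT1 load the MCM2-7 helicase onto it, and geminin (*Gmnn*) binds CDT1 later in the cycle so that no origin fires again. In S phase the CDC7-DBF4 kinase, MCM10, CDC45 and the GINS complex turn the loaded helicase on, primase and polymerase alpha start each strand, and polymerases delta and epsilon extend it on the PCNA clamp. Many of these genes are known targets of E2F transcription factors and are transcribed most strongly around the G1/S transition, so their transcripts are high in dividing cells. In a bulk library, fewer cells in S phase and less transcript per cell cannot be told apart.

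Reads per library ranged from 13750591 to 19323514. A gene with no read could still hold up to 3, which corresponded to 0.155 to 0.218 CPM, where CPM are reads scaled to the size of the library after TMM normalization. Mitochondrial genes took 1.47% to 3.08% of the reads in 10 libraries and 6.93% and 6.44% in untreated and 5-FU-treated LGR5- replicate 3. *Lgr5* itself did not separate the sorted populations: it averaged 28.8 ± 6.63 (SD, n = 3) CPM in untreated LGR5- and 25.7 ± 2.12 CPM in untreated LGR5+ libraries, and 25.1 ± 9.50 and 27.0 ± 0.196 CPM after 5-FU. The GFP transcript was not analysed here, so LGR5+ and LGR5- below are the names on the labels. The epithelial and bile duct markers *Epcam*, *Krt19* and *Sox9* were present throughout, at no less than 674, 374 and 158 CPM. The hepatocyte markers *Hnf4a* and *Ttr* held at most 2 reads in any library and *Alb* at most 33. *Afp*, which fetal hepatocytes express and which makes up most of the hepatocyte sum below, held 9.88 to 21.1 CPM in untreated and 25.6 to 54.3 CPM in treated libraries. It was called higher after 5-FU in both populations, with log2 fold changes of 1.31 ± 0.34 in LGR5+ (adjusted P = 0.0177) and 1.43 ± 0.34 in LGR5- cells (adjusted P = 0.0118). Of the 10 macrophage, 7 endothelial, 7 fibroblast and 8 hepatocyte markers, 5, 5, 5 and 6 did not pass the filter on low counts. The summed level of the macrophage markers was 32.2 to 66.6 CPM in untreated and 46.5 to 116 CPM in 5-FU-treated libraries, and that of the hepatocyte markers 10.5 to 22.4 and 26 to 56.5 CPM. The endothelial markers summed to 2.41 to 6.59 CPM and the fibroblast markers to 26.2 to 60.9 CPM over all libraries. The 7 cholangiocyte markers, 6 of which passed the filter, summed to 2388 to 3112 CPM in untreated and 3425 to 11895 CPM in 5-FU-treated libraries. Only 2 of these 6 were called higher in each population, and 1 (LGR5+) and 2 (LGR5-) had fitted values below 0. *Krt19* alone ran from 374 to 4482 CPM. Among 5 macrophage and 2 fibroblast markers tested, 1 macrophage marker was called higher and 1 fibroblast marker lower in each population. Over all tested genes, 9.66% (LGR5+) and 8.3% (LGR5-) were called higher, and 6.37% and 7.11% lower. The part of these markers in the results on the replication genes was not tested.

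The promoters of 4 members are printed as examples of a sequence feature that some of the members hold, a word bound by E2F proteins. Of the 46 members, 37 had at least 1 promoter window in the RefSeq table of GRCm38.p6, each window reaching from 250 bases before to 50 bases after an annotated start. They were searched on both strands for 4 words that E2F proteins are known to bind, TTTCCCGC, TTTGGCGC, TTTCGCGC and TTTGCCGC. At least 1 word lay in a window of 15 of the 37 members (40.5%), against 704 of the 27025 genes in the table (2.60%). The other 22 members with a window held none, among them *Pcna*, *Mcm2*, *Cdc45* and *Dbf4*. With only the first 2 words the numbers were 12 members (32.4%) and 486 genes (1.80%). Members with several windows had more than 1 chance of a match. The 160 bases before the start are given 5′ to 3′ on the gene's own strand, with each word in capitals. They are chr8:75109349-75109508 (plus strand) for *Mcm5*, chr1:128359706-128359865 (minus strand) for *Mcm6*, chr11:98907991-98908150 (plus strand) for *Cdc6* and chrX:93632156-93632315 (minus strand) for *Pola1*, of GRCm38.p6.
Mcm5: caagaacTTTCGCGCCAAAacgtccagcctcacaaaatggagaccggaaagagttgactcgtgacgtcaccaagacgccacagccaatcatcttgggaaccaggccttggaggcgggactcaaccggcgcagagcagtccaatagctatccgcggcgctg
Mcm6: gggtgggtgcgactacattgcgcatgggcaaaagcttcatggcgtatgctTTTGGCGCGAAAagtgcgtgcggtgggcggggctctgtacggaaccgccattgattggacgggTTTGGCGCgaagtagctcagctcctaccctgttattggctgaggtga
Cdc6: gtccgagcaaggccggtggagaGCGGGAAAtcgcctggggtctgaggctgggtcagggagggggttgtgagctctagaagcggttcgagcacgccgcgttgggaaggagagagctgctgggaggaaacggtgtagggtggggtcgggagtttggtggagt
Pola1: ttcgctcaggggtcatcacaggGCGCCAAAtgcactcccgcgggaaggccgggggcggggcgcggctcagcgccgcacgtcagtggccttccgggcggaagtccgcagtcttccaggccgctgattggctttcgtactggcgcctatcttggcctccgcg
In *Mcm5* and *Mcm6* a word on one strand overlaps a word on the other, which gives 1 run of 12 capitals, and *Mcm6* holds a further word nearer its start, 3 in all. *Cdc6* and *Pola1* hold 1 word each, on the strand opposite to the gene, reaching from 138 to 131 bases before the start. Words were also found in windows of *Mcm3*, *Mcm7*, *Orc1*, *Cdt1*, *Gins3*, *Pold1*, *Pold3*, *Pole2*, *Rfc3*, *Lig1* and *Clspn*. A match is a string of letters and not a shown binding site. Among other lists of genes, a word was found in 7 of 22 further replication genes, 5 of 10 E2F and pocket protein genes, 1 of 17 mitosis genes and 0 of 11 p53 target genes with a window.

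After 5-FU the replication genes were lower in both populations. In LGR5+ cells 22 of the 46 members (47.8%) were called lower by edgeR at an adjusted P under 0.05 and 0 were higher, where 6.37% of all tested genes were called lower. In LGR5- cells 36 members (78.3%) were called lower and 0 higher, against 7.11% of all tested genes. The fitted log2 fold change was below 0 for all 46 members in both populations, called or not, with a median of -1.09 in LGR5+ and -1.41 in LGR5- cells, where the median over all tested genes was -0.02 and -0.05. At the study's thresholds, an unadjusted P under 0.05 with a log2 fold change below -1.5, 6 members passed in LGR5+ cells (2.81% of all genes) and 21 in LGR5- cells (2.75%). Of the members called, 21 were called in both populations, which is 95.5% of the LGR5+ list and 58.3% of the LGR5- list. *Rpa3* was the only member called in LGR5+ and not in LGR5- cells. The 15 called in LGR5- and not in LGR5+ cells were all 6 genes of the MCM2-7 helicase, *Orc1*, *Cdt1*, *Cdc45*, *Gins4*, *Pcna*, *Pold3*, *Rfc5*, *Rpa2* and *Wdhd1*. None of these had a response that differed between the populations when the difference itself was tested. The 9 members that edgeR called in neither population were *Cdc6*, *Clspn*, *Fen1*, *Lig1*, *Orc2*, *Orc6*, *Rfc1*, *Rpa1* and *Timeless*. DESeq2 called every member that edgeR called, and 8 more in LGR5+ cells (*Mcm2*, *Mcm6*, *Orc1*, *Cdt1*, *Cdc45*, *Rfc5*, *Clspn* and *Wdhd1*) and 4 more in LGR5- cells (*Orc2*, *Rpa1*, *Clspn* and *Timeless*). Below, called without a named tool means called by edgeR.

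**Figure D1:**
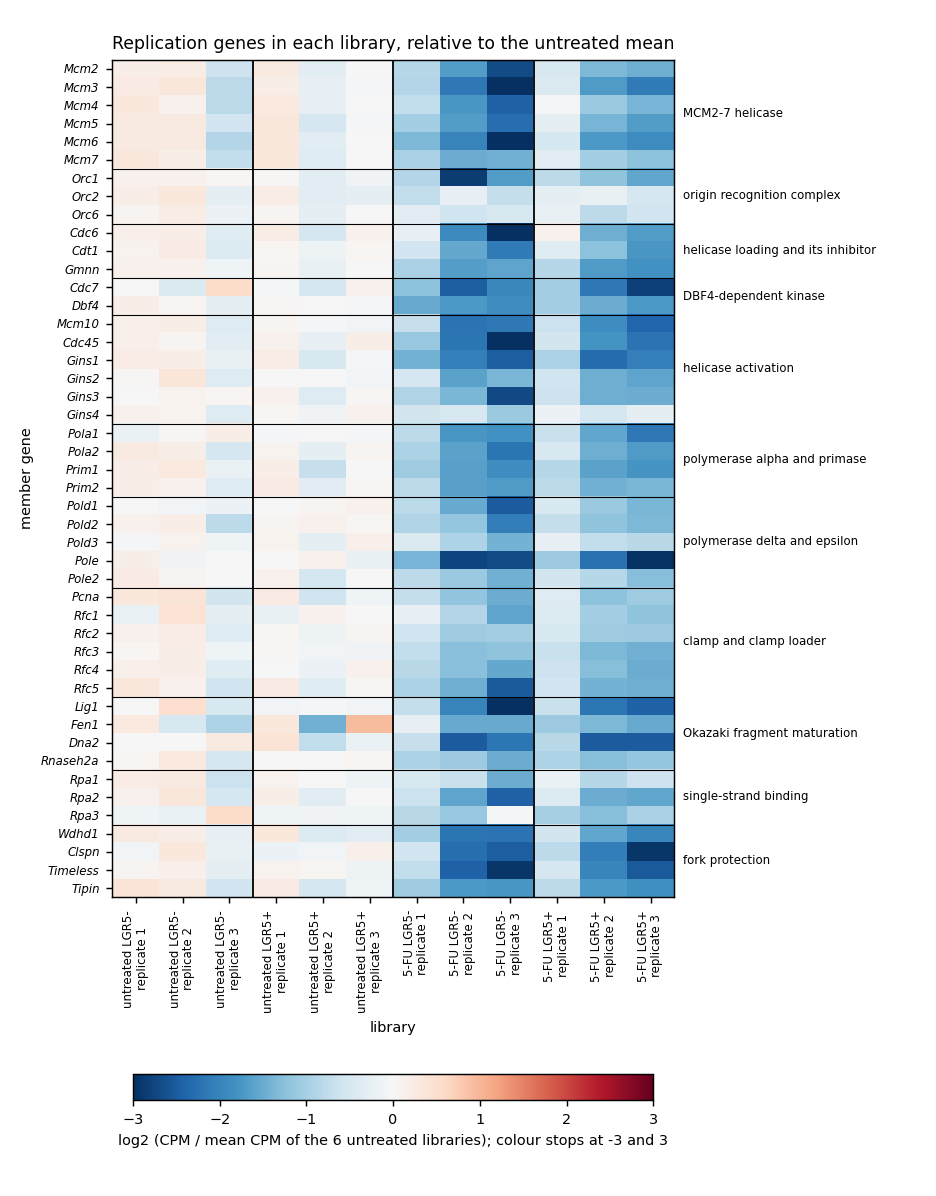
Level of each of the 46 members (rows, grouped by role) in each of the 12 libraries (columns), as log2 of its CPM over its mean in the 6 untreated libraries. The 5-FU-treated libraries are below the untreated mean (blue) in nearly every row, and replicate 1 of both treated groups is the palest of its group, at a median of 56.1% (LGR5-) and 67.9% (LGR5+) of the group's own untreated mean.

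The 3 treated libraries of a group did not respond equally. Reads on the 46 members made up 0.321% to 0.414% of all reads in the untreated libraries. They made up 0.223% and 0.247% in treated LGR5- and LGR5+ replicate 1, and 0.115% to 0.151% in the other 4 treated libraries. Relative to its mean in the untreated libraries of the same population, the median member stood at 67.9%, 37.2% and 34.3% in treated LGR5+ replicates 1, 2 and 3, and at 56.1%, 32.1% and 25.4% in treated LGR5- replicates 1, 2 and 3. Replicate 1 was the highest of the 3 treated libraries for 44 members in LGR5+ and for 43 members in LGR5- cells. Where treated and untreated libraries overlapped, it was mostly through this replicate: 9 members reached the untreated range in treated LGR5+ replicate 1, 2 in replicate 2 and 0 in replicate 3. The corresponding numbers in LGR5- cells were 5, 1 and 1. Every treated library was below every untreated one for 37 members in LGR5+ cells, where the same held for 20% of all genes, and for 39 members in LGR5- cells (13.4% of all genes). An exact two-sided permutation test of 3 libraries against 3 cannot give a P below 0.1 for any of them. Among the untreated libraries, LGR5- replicate 3, with its high mitochondrial share, was the lowest of its group for 40 members and LGR5+ replicate 2 for 32.

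The number of members called after 5-FU rested on single libraries, although no direction of these changes did. Without treated LGR5+ replicate 1, 36 members were called in LGR5+ cells. Without treated LGR5+ replicate 2 or replicate 3, 7 were called, and without untreated LGR5+ replicate 1 or replicate 3, 13. In LGR5- cells the number fell to 20 and 23 without untreated replicates 1 and 2, and to 22 and 23 without treated replicates 2 and 3. Without both treated replicate 1 libraries, 41 members were called in each population. Of the 22 members called in LGR5+ cells, 7 were also called in each of the 6 fits that left out 1 library of the groups compared: *Dbf4*, *Gins1*, *Gmnn*, *Pole*, *Prim2*, *Rfc3* and *Rnaseh2a*. The other 15 lost their call without treated LGR5+ replicate 2 and without replicate 3. Of the 36 called in LGR5- cells, 19 were called in all 6 fits: the same 7 genes and *Cdc7*, *Gins3*, *Mcm6*, *Mcm7*, *Orc1*, *Pola2*, *Pold1*, *Pole2*, *Prim1*, *Rfc4*, *Tipin* and *Wdhd1*. The other 17 lost it in at least 1 of the fits. In 16 fits of either comparison, the log2 fold change of every member tested was below 0.

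**Figure D2:**
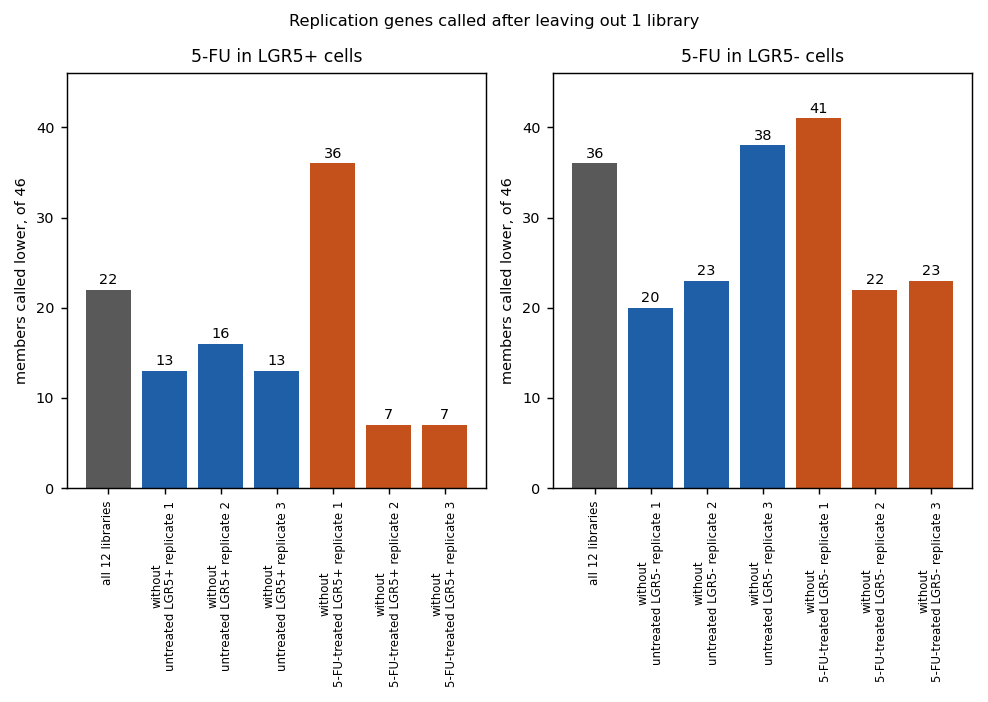
Number of the 46 members called lower after 5-FU (bars, from 0) with all 12 libraries and with 1 library left out, for LGR5+ cells (left) and LGR5- cells (right). The count moves between 7 and 36 in LGR5+ and between 20 and 41 in LGR5- cells, and is highest in both without treated replicate 1.

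The MCM2-7 helicase, the ring of 6 related subunits that unwinds the fork, was called lower in LGR5- cells for all 6 genes, with a median log2 fold change of -1.57. In LGR5+ cells 0 of the 6 passed the test, with values between -1.27 and -0.77. Of these 6, 5 had an unadjusted P under 0.05 by edgeR, and DESeq2 called 2, *Mcm2* and *Mcm6*. The contrast between the populations rested on single libraries: without treated LGR5+ replicate 1, 5 of the 6, all but *Mcm4*, were called in LGR5+ cells. In LGR5- cells *Mcm6* and *Mcm7* were called in each of the 6 fits without 1 library, while *Mcm2*, *Mcm3* and *Mcm4* lost their call in 4 of them and *Mcm5* in 3. *Mcm6* stood at 326, 323 and 145 CPM in untreated LGR5- replicates 1, 2 and 3, and at 106, 67.3 and 32.5 CPM in the treated ones. In LGR5+ cells it stood at 333, 211 and 271 CPM untreated and 185, 81.6 and 72.1 CPM treated. No treated library of *Mcm6* reached an untreated one of the same population, and the log2 fold change was -1.95 ± 0.45 (SE) in LGR5- (adjusted P = 0.0106) and -1.27 ± 0.44 in LGR5+ cells (adjusted P = 0.0698). *Mcm7* fell from 177, 157 and 83.3 to 70.9, 49.9 and 51 CPM in LGR5- libraries, a log2 fold change of -1.28 ± 0.30 (adjusted P = 0.01). Its LGR5+ libraries held 172, 106 and 139.9 CPM untreated and 109, 69.1 and 59.7 CPM treated, so that treated replicate 1 overlapped the untreated range (log2 fold change -0.81 ± 0.30, adjusted P = 0.0784). *Mcm4* stood at 95.8, 84.1 and 43.9 CPM untreated and 45.5, 22.7 and 14.2 CPM treated in LGR5- cells, and 93.6, 64.4 and 76.5 and 73.4, 35.5 and 28.8 CPM in LGR5+ cells. It was called in LGR5- cells (-1.44 ± 0.43, adjusted P = 0.0369) and not in LGR5+ cells (-0.77 ± 0.42, adjusted P = 0.248), with overlap in both populations. Of *Mcm7* exon bases, 12.6% are shared with exons of other annotated genes.

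Of the 3 origin recognition genes, 1 was called lower in LGR5- cells, *Orc1*, and 0 in LGR5+ cells. In LGR5+ cells 2 of the 3 had an unadjusted P under 0.05 by edgeR, and DESeq2 called 1, *Orc1*. *Orc1*, an ATPase subunit, stood at 6.42, 6.42 and 6.16 CPM in untreated and 3.18, 0.82 and 1.83 CPM in treated LGR5- libraries. The LGR5+ values were 6.06, 4.73 and 5.44 and 3.43, 2.53 and 1.99 CPM. All treated libraries lay below all untreated ones, with a log2 fold change of -1.70 ± 0.39 in LGR5- (adjusted P = 0.00864) and -1.03 ± 0.38 in LGR5+ cells (adjusted P = 0.0794). *Orc2*, a core subunit, overlapped between treated and untreated libraries in both populations. It held 42.7, 46.2 and 30.4 and 22.1, 31.1 and 22.4 CPM in untreated and treated LGR5- libraries and 43.2, 29.2 and 31 and 30.5, 32 and 26.4 CPM in LGR5+ libraries. The log2 fold change of *Orc2* was -0.66 ± 0.21 (adjusted P = 0.0513) in LGR5- cells. In LGR5+ cells it was -0.22 ± 0.21 (adjusted P = 0.537), the smallest of all members, and ran from -0.32 to -0.02 with 1 library left out. Of the exon bases of *Orc2*, 29.8% are shared with *Nif3l1*. *Orc6* was not called either, at -0.52 ± 0.19 and -0.46 ± 0.19.

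Of the 3 genes that load the helicase or inhibit the loading, 1 was called lower in LGR5+ and 2 in LGR5- cells. *Gmnn*, which encodes the CDT1 inhibitor geminin, was called in both populations. It fell from 182, 146 and 168 CPM to 95.3, 52.9 and 48.9 CPM in LGR5+ cells and from 186, 188 and 157 to 87, 54.5 and 57.4 CPM in LGR5- cells. The treated groups lay below the untreated ones without overlap, with log2 fold changes of -1.33 ± 0.26 (adjusted P = 0.00268) and -1.42 ± 0.26 (adjusted P = 0.00233). *Cdt1*, the loading factor that geminin binds, held 43, 37.2 and 42.8 CPM untreated and 32, 17.7 and 12.2 CPM treated in LGR5+ cells, and 44.7, 48.8 and 31 and 27.8, 14.2 and 9.46 CPM in LGR5- cells. Its groups did not overlap in either population, and it was called in LGR5- (-1.27 ± 0.37, adjusted P = 0.0319) and not in LGR5+ cells (-0.99 ± 0.37, adjusted P = 0.0825). *Cdc6*, the ATPase that works with CDT1, spread widely between treated libraries. Untreated libraries held 35.7, 21.7 and 33.3 CPM in LGR5+ and 33.9, 35.2 and 23.8 CPM in LGR5- cells, and treated libraries 33.6, 11.1 and 9.53 and 25.9, 8.14 and 2.86 CPM. In both populations *Cdc6* of treated replicate 1 lay within the untreated range while replicates 2 and 3 lay below it, and *Cdc6* was called in neither (-0.74 ± 0.65, adjusted P = 0.499, and -1.32 ± 0.67, adjusted P = 0.221). With 1 library left out the log2 fold change of *Cdc6* ran from -1.55 to -0.44 in LGR5+ and from -2.47 to -0.82 in LGR5- cells.

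**Figure D3:**
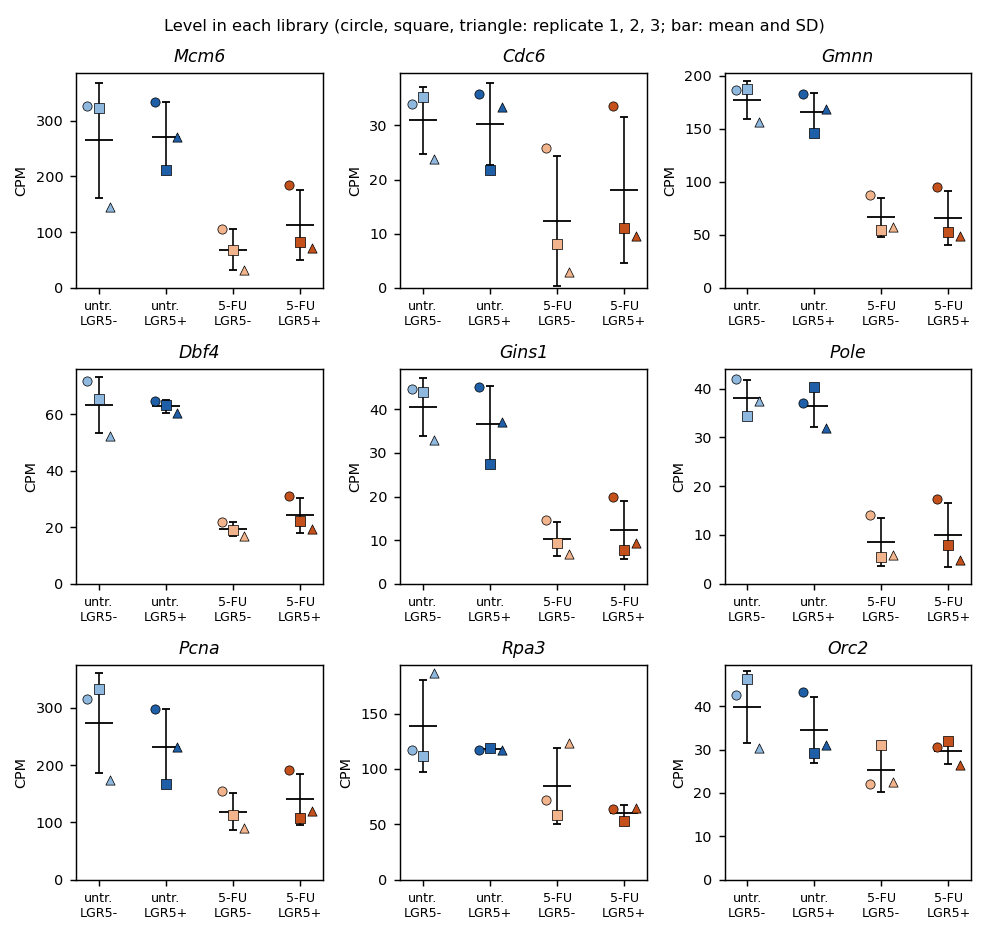
CPM of 9 members in each library (points, shaped by replicate number) with the mean and SD of each group (bars). *Dbf4*, *Gmnn* and *Pole* are separated by treatment in both populations, while *Cdc6* of treated replicate 1 (25.9 and 33.6 CPM) lies within the untreated range and *Orc2* overlaps in both populations.

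The DBF4-dependent kinase, which phosphorylates the loaded helicase to start S phase, was called lower for both genes in both populations. *Dbf4*, its regulatory subunit, had the smallest P of all members: it stood at 64.9, 63.2 and 60.4 CPM in untreated and 31.2, 22.4 and 19.2 CPM in treated LGR5+ libraries, and at 71.8, 65.6 and 52.3 and 22, 19.1 and 16.9 CPM in LGR5- libraries. No treated library came near an untreated one, and the log2 fold change was -1.37 ± 0.20 (adjusted P = 0.000302) in LGR5+ and -1.71 ± 0.20 (adjusted P = 9.53e-05) in LGR5- cells. *Cdc7*, the catalytic subunit, fell by 1.71 and 1.88 on the log2 scale.

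Of the 6 genes that activate the helicase, 4 were called lower in LGR5+ and 6 in LGR5- cells, with medians of -1.23 and -1.51. *Gins1*, 1 of the 4 GINS subunits, held 45, 27.5 and 37 CPM untreated and 20, 7.76 and 9.35 CPM treated in LGR5+ cells, and 44.7, 44.1 and 32.9 and 14.5, 9.31 and 6.9 CPM in LGR5- cells. Treated and untreated libraries did not overlap, with log2 fold changes of -1.56 ± 0.34 (adjusted P = 0.00571) and -1.98 ± 0.34 (adjusted P = 0.00168). *Gins4* had the smallest fitted change of the complex. Its LGR5+ libraries held 90.5, 81.3 and 96.3 and 77.2, 61.2 and 70.9 CPM, and its LGR5- libraries 95.2, 94.8 and 66.8 and 60.2, 63.1 and 40.6 CPM, so that its values were -0.36 ± 0.20 (adjusted P = 0.261) and -0.65 ± 0.20 (adjusted P = 0.0441). *Gins2* and *Gins3* were called in both populations, between -1.53 and -1.08, but 67.3% of the exon bases of *Gins2* are shared with *Gse1* and reads of both genes could be mixed. *Mcm10* was called in both, at -1.43 ± 0.43 in LGR5+ cells. *Cdc45*, which binds the active helicase, was called in LGR5- cells (-1.91 ± 0.46, adjusted P = 0.0136) and had -1.36 ± 0.45 with an adjusted P of 0.057 in LGR5+ cells.

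All 4 genes of polymerase alpha and primase, which lay the RNA-DNA primers, were called lower in both populations. The medians were -1.21 in LGR5+ and -1.45 in LGR5- cells. *Prim1*, the catalytic primase subunit, fell from 99.5, 106 and 75.7 to 41.3, 28 and 23.9 CPM in LGR5- cells and from 100, 53.8 and 86.4 to 47.8, 28.5 and 25.4 CPM in LGR5+ cells. *Prim2*, its partner, fell from 49.5, 47.2 and 33.4 to 24.7, 13.9 and 13.3 CPM and from 51.7, 34 and 44.3 to 24.6, 16 and 16.7 CPM. For both genes every treated library lay below every untreated one, with log2 fold changes of -1.59 ± 0.29 and -1.24 ± 0.29 for *Prim1* (adjusted P = 0.0024 and 0.00892) and -1.32 ± 0.27 and -1.19 ± 0.27 for *Prim2* (adjusted P = 0.00431 and 0.00719) in LGR5- and LGR5+ cells.

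Polymerases delta and epsilon held the member with the largest fitted decrease in both populations. *Pole*, the catalytic subunit of the polymerase that copies the leading strand, stood at 37, 40.4 and 31.8 CPM in untreated LGR5+ libraries and 17.4, 7.87 and 4.79 CPM after 5-FU. In LGR5- libraries it stood at 42, 34.5 and 37.5 and 14.1, 5.5 and 5.8 CPM. The treated libraries were well below the untreated ones and differed among themselves, replicate 1 being the highest, and the log2 fold change was -1.86 ± 0.41 (adjusted P = 0.00705) in LGR5+ and -2.16 ± 0.42 (adjusted P = 0.00365) in LGR5- cells. Its accessory subunit *Pole2* was called with smaller fitted changes, from 36.8, 23.5 and 33.2 to 22.9, 18.5 and 14 CPM in LGR5+ cells (-0.75 ± 0.23, adjusted P = 0.036). In LGR5- cells *Pole2* went from 39.6, 35.4 and 33.2 to 19.5, 15.6 and 12.3 CPM (-1.19 ± 0.23, adjusted P = 0.00339). The delta subunits *Pold1* and *Pold2* were called in both populations. *Pold3* was called in LGR5- cells (-0.85 ± 0.24, adjusted P = 0.0245) and not in LGR5+ cells (-0.59 ± 0.23, adjusted P = 0.103).

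Of PCNA and the 5 subunits of its loader, 3 were called lower in LGR5+ and 5 in LGR5- cells. *Pcna*, the sliding clamp, held 315, 333 and 174 CPM in untreated and 154, 112 and 89.8 CPM in treated LGR5- libraries, which did not overlap. In LGR5+ cells it held 298, 167 and 231 and 192, 109 and 120.0 CPM, and treated replicate 1 exceeded untreated replicate 2. The log2 fold change of *Pcna* was -1.21 ± 0.31 (adjusted P = 0.0164) in LGR5- and -0.73 ± 0.31 (adjusted P = 0.124) in LGR5+ cells. *Rfc3*, a small subunit of the loader, fell from 149.9, 139 and 137 to 93, 57.3 and 54.1 CPM in LGR5+ cells and from 154, 168 and 134 to 87.7, 61.5 and 63.6 CPM in LGR5- cells. Its groups were apart in both populations, at -1.06 ± 0.22 (adjusted P = 0.00444) and -1.10 ± 0.22 (adjusted P = 0.00424). *Rfc2* and *Rfc4* were called in both, *Rfc5* in LGR5- cells, and the large subunit *Rfc1* in neither (-0.82 ± 0.30 in both populations). Exon bases are shared with other genes for 15.1% of *Rfc2*, 12.7% of *Rfc4* and 10.7% of *Rfc5*.

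Of the 4 genes that mature the lagging strand, *Rnaseh2a* and *Dna2* were called lower in both populations. *Rnaseh2a*, the catalytic subunit of the enzyme that removes RNA from DNA, held 122, 121 and 129 CPM untreated and 64.6, 50.9 and 54.9 CPM treated in LGR5+ cells, and 128, 150.3 and 86.3 and 63.8, 57.4 and 43.6 CPM in LGR5- cells. Its log2 fold changes were nearly equal, -1.13 ± 0.21 (adjusted P = 0.0023) and -1.14 ± 0.21 (adjusted P = 0.00266). Of its exon bases, 14.7% are shared with *Prdx2* and *Gm49661*, and *Prdx2* held 115209 reads against 18322 for *Rnaseh2a*, so its values may include reads of *Prdx2*. *Lig1*, the ligase that seals Okazaki fragments, was called in neither population (-1.46 ± 0.57 and -1.71 ± 0.57), with treated values from 11.8 to 70.4 CPM. *Fen1*, the flap endonuclease, held only 125 reads over all 12 libraries, and 84.2% of its exon bases are shared with *Gm10143* and *Tmem258*. Its values, at most 1.61 CPM, were not read as the level of its transcript.

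The 3 subunits of RPA, which coats single-stranded DNA, were less uniform. *Rpa3* was called in LGR5+ cells, where it fell from 117, 119 and 117 to 64.2, 52.9 and 64.8 CPM (-0.96 ± 0.26, adjusted P = 0.0222). In LGR5- cells it held 117, 112 and 187 CPM untreated and 72, 58.4 and 124 CPM treated, replicate 3 being the highest of both groups (-0.71 ± 0.26, adjusted P = 0.0807). Both LGR5- replicate 3 libraries have the high mitochondrial share, whose part in this was not tested. *Rpa2* held 110.2, 127 and 69.4 CPM untreated and 63.6, 33.5 and 18.5 CPM treated in LGR5- cells, where it was called (-1.41 ± 0.41, adjusted P = 0.0315), and 114, 80.0 and 99.3 and 75.3, 35.7 and 33.9 CPM in LGR5+ cells (-1.02 ± 0.40, adjusted P = 0.104). *Rpa1*, the large subunit, was called in neither by edgeR and in LGR5- cells by DESeq2.

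The fork protection genes stabilise stalled forks and signal from them. *Tipin*, the partner of *Timeless*, was called in both populations. It fell from 247, 147 and 192 to 121, 63.5 and 58.4 CPM in LGR5+ cells (-1.27 ± 0.33, adjusted P = 0.0156) and from 271, 252 and 140.4 to 99.1, 62.6 and 62.4 CPM in LGR5- cells (-1.57 ± 0.33, adjusted P = 0.00533), with no overlap. *Timeless* itself and *Clspn*, the adaptor of the checkpoint kinase CHK1, had fitted values of the same order and a wider spread. By edgeR they were called in neither population (*Timeless* -1.41 ± 0.54 and -1.70 ± 0.55, *Clspn* -1.64 ± 0.52 and -1.53 ± 0.52). DESeq2 called *Clspn* in both and *Timeless* in LGR5- cells. *Wdhd1* was called in LGR5- cells (-1.78 ± 0.38, adjusted P = 0.00589) and not in LGR5+ cells (-1.14 ± 0.37, adjusted P = 0.0515).

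**Figure D4:**
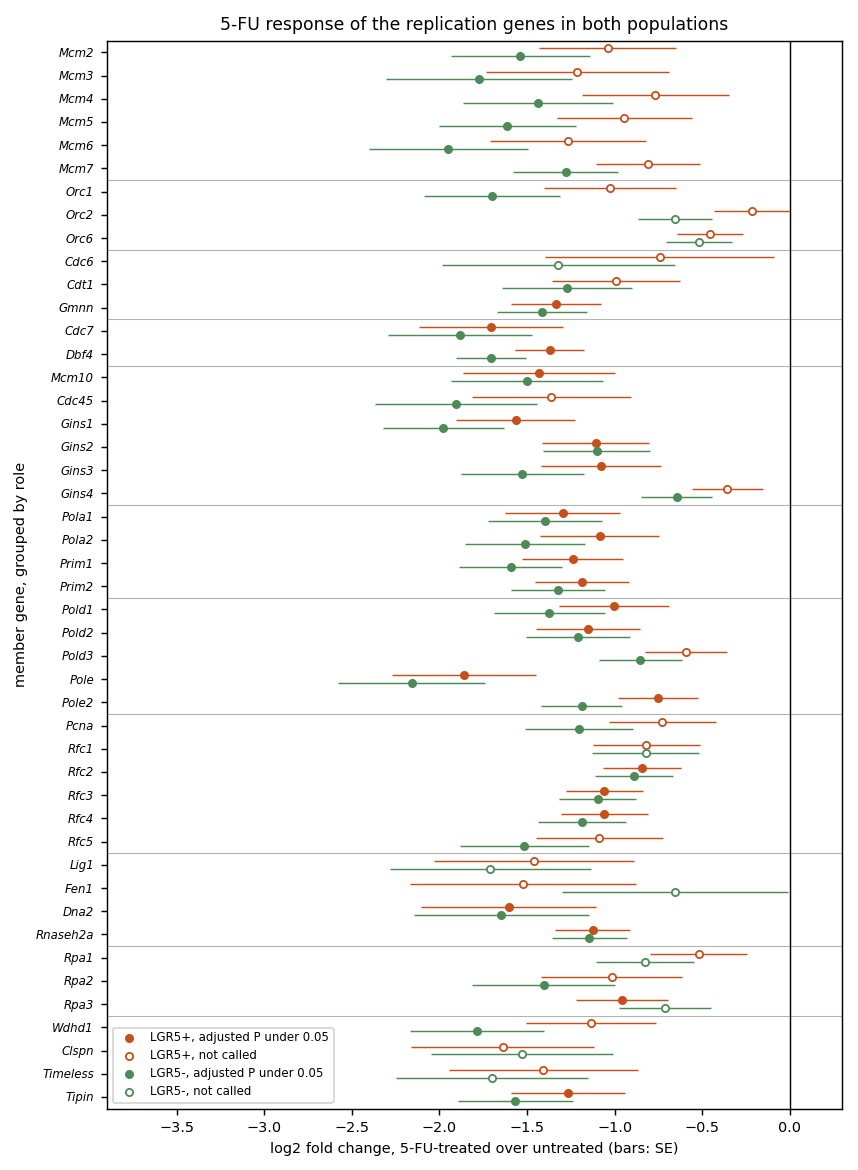
Log2 fold change after 5-FU of each member (rows, grouped by role) in LGR5+ (orange) and LGR5- cells (green), with SE bars and filled points where the adjusted P was under 0.05. Every point lies left of 0, from -0.22 for *Orc2* in LGR5+ cells to -2.16 for *Pole* in LGR5- cells.

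Members with and without an E2F word in a promoter window had similar median values after 5-FU. In LGR5+ cells the median log2 fold change was -1.03 for the 15 members with a word, of which 5 were called, and -1.11 for the 22 without, of which 10 were called. In LGR5- cells it was -1.40 with 12 called and -1.45 with 15 called. No test of the difference was run.

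Between untreated LGR5+ and LGR5- cells no member was called, and 0% of all tested genes were, by edgeR as by DESeq2. The log2 fold changes, LGR5+ over LGR5-, ran from -0.24 to 0.18 without *Fen1*, which had 0.51 on few reads, with a median of -0.04 over all 46, and 0 members had an unadjusted P under 0.05 (1.32% of all genes). The 3 members with the smallest P were *Orc2* (-0.21 ± 0.21), *Pole2* (-0.21 ± 0.23) and *Rpa3* (-0.24 ± 0.26), each with an adjusted P of 1. The populations overlapped for 45 of the 46 members, and 5.28% of all genes did not overlap. Within libraries of the same number, 18 members were higher in LGR5+ cells in replicate 1, 3 in replicate 2 and 37 in replicate 3, where 49.4%, 51.1% and 50% of all genes were. Replicates 2 and 3 thus lay in opposite directions for the members.

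After 5-FU no member was called between LGR5+ and LGR5- cells in the unpaired edgeR fit of all 12 libraries, nor was any gene (0% of those tested). DESeq2 called 79 genes, 0 of them members. Of the fitted values, 36 of 46 lay above 0, that is higher in LGR5+ cells, with a median of 0.24 against 0.03 over all genes. In the unpaired fit this direction rested on single libraries, where leaving out 1 leaves another without its same-numbered partner. Without treated LGR5+ replicate 1, 16 of 46 lay above 0 with a median of -0.13, without treated LGR5- replicate 3, 21 with a median of -0.04, and without treated LGR5- replicate 1, 45 with a median of 0.59. With 1 library left out the value of *Mcm4* ran from 0.23 to 1.32 and that of *Pole* from -0.41 to 0.83. No member had an unadjusted P under 0.05 (13% of all genes did), and all 46 overlapped between the populations, where 24.4% of all genes did not. The smallest P were those of *Rpa3* (-0.48 ± 0.26, 95% confidence interval -1.04 to 0.08), *Mcm4* (0.74 ± 0.42, -0.17 to 1.65) and *Gins4* (0.35 ± 0.20, -0.08 to 0.79). Of these *Rpa3* was lower in LGR5+ cells. In these 6 libraries the replicate numbers pair the populations, and the replicate block fitted over all 12 libraries called 0 members. *Mcm4* was higher in the LGR5+ library of every number, and with the replicate block in the 5-FU-treated libraries, a fit added after the data were seen, *Mcm4* was called: its log2 fold change was 0.71 ± 0.14 (adjusted P = 0.0344). It was the only member called, where that fit called 451 genes, 214 of them (1.41% of all genes) higher in LGR5+ cells. Under that block 11 of 45 members tested had an unadjusted P under 0.05 (27.7% of all genes), among them the 6 genes of the MCM2-7 helicase, all higher in LGR5+ cells. *Mcm6*, at 0.67 ± 0.17, had an adjusted P of 0.0525. By CPM alone, 39, 30 and 32 of the 46 members were higher in LGR5+ cells in treated replicates 1, 2 and 3. The same held for 54.6%, 52.3% and 52.4% of all genes. In all 3 numbered pairs 21 members were higher in LGR5+ cells, and 29.6% of all genes were.

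The difference between the 5-FU responses was not called for any member, nor for any gene (0% of those tested), by edgeR as by DESeq2. It was above 0, a smaller fitted decrease in LGR5+ cells, for 42 of 46 members, with a median of 0.30 against 0.04 over all genes. Without treated LGR5+ replicate 1 it was above 0 for 18 members with a median of -0.09, without treated LGR5- replicate 3 for 29 with a median of 0.05, and without treated LGR5- replicate 1 for 44 with a median of 0.69. With 1 library left out the difference for *Mcm6* ran from 0.14 to 1.14 and that for *Pole* from -0.36 to 0.89. No member had an unadjusted P under 0.05 (1.57% of all genes). The smallest P were those of *Orc2* (0.44 ± 0.30, 95% confidence interval -0.21 to 1.08), *Pole2* (0.43 ± 0.32, -0.26 to 1.12) and *Orc1* (0.67 ± 0.54, -0.47 to 1.82). The median over the helicase genes was 0.61 and that over the clamp and its loader 0.09. For *Mcm6* the interval of the difference ran from -0.65 to 2.02 and for *Gmnn* from -0.68 to 0.85, so that neither equal nor clearly unequal responses were shown.

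Per kb of annotated exon, the scale on which genes can be compared, members differed widely in level. In the 6 untreated libraries *Gmnn* (median 120 CPM per kb), *Tipin* (117), *Pcna* (110.3) and *Rpa3* (103) were the highest, and their ranges overlapped. *Pole* (3.34), *Mcm10* (3.12), *Wdhd1* (2.59), *Dna2* (1.86) and *Orc1* (1.76) were the lowest apart from *Fen1*. The subunits of the MCM2-7 ring, which is built from 1 copy of each, differed in transcript level. *Mcm6* was highest at a median of 63.6 CPM per kb, with *Mcm3* at 44.9, *Mcm7* at 33.5, *Mcm4* at 22.4, *Mcm5* at 20.9 and *Mcm2* at 12.3. The ranges of neighbours in this order overlapped, while *Mcm6* (31.2 to 71.4) and *Mcm2* (7.44 to 13.8) did not. After 5-FU the medians were 16.5 for *Mcm6* and 4.29 for *Mcm2*. In the GINS complex *Gins4* (68.7) lay above *Gins1* (26.7), *Gins2* (14.7) and *Gins3* (6.99) without overlap. These levels rest on the annotated exon length, whose transcribed part was not measured here.

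**Figure D5:**
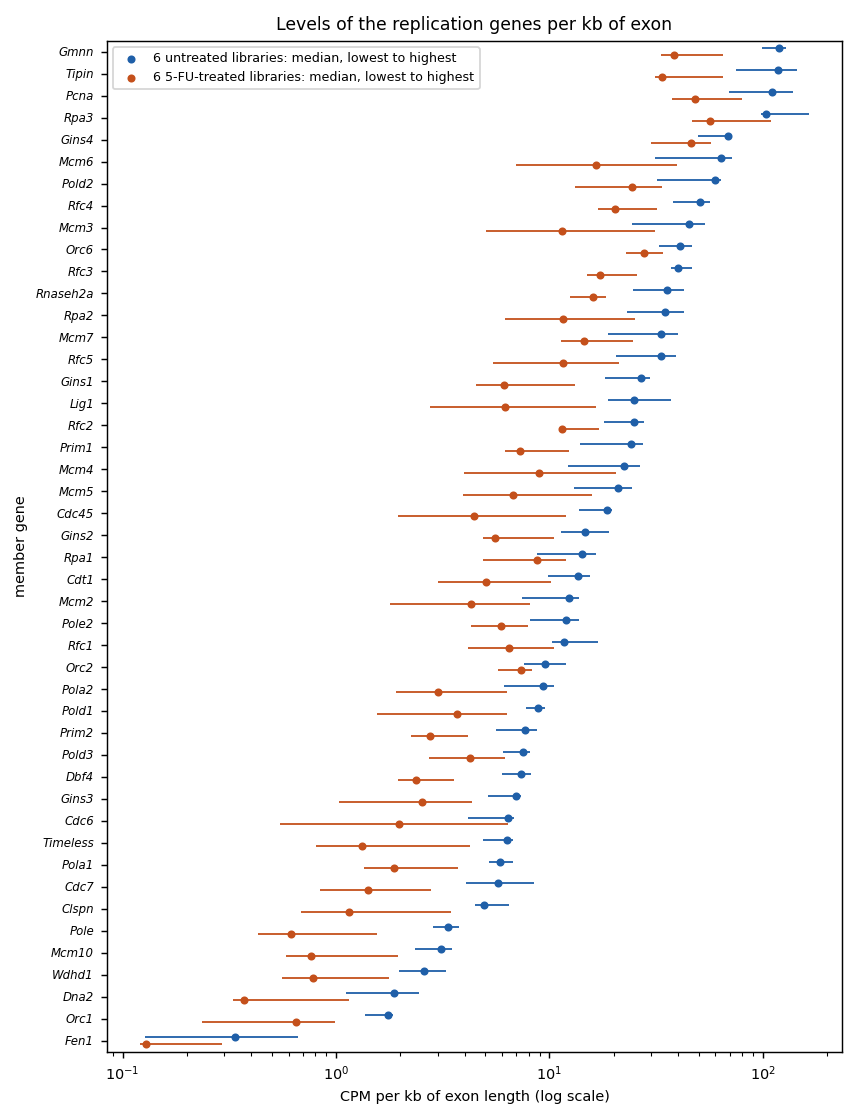
Level of each member per kb of exon (log axis), as the median (point) and range (line) of the 6 untreated (blue) and the 6 5-FU-treated libraries (orange), ordered by the untreated median. *Gmnn* leads at 120 CPM per kb, *Orc1* is at 1.76 and *Fen1*, whose exons are mostly shared with other genes, is last.

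Other genes of the same processes were read from lists made by function. Of 28 further replication genes, 10 were called lower in LGR5+ and 15 in LGR5- cells and 0 higher, with medians of -0.65 and -0.86. *Rnaseh2c*, a partner of *Rnaseh2a*, had -0.99 ± 0.19 in both populations (adjusted P = 0.00241 and 0.00305). *Ticrr*, which encodes the origin-firing factor treslin, had -1.54 ± 0.29 in LGR5+ cells (adjusted P = 0.00249) and *Mtbp*, its partner, -1.64 ± 0.30 in LGR5- cells (adjusted P = 0.00246). On the positive side *Orc4* (0.51 ± 0.24) and *Tonsl* (0.17 ± 0.18) in LGR5+ cells and *Pold4* (0.65 ± 0.29) and *Tonsl* (0.28 ± 0.18) in LGR5- cells had the smallest P, and none was called. All 20 mitosis genes were called lower in both populations, with medians of -1.42 and -1.74, *Ttk* at -1.44 ± 0.26 and *Cenpf* at -1.67 ± 0.33 in LGR5+ cells. Their summed level was 2762 to 4404 CPM in untreated and 836 to 2440 CPM in treated libraries. Of 13 E2F and pocket protein genes, 3 were lower and 1 higher in LGR5+ cells, and 6 lower and 1 higher in LGR5- cells, the higher one being *Rb1*. *Tfdp2* (-1.06 ± 0.19), an E2F partner, and *Rbl1* (-1.40 ± 0.31), a pocket protein, had the smallest P in LGR5+ cells. Of 16 p53 target genes, 14 were called higher in each population and 0 lower, where 9.66% (LGR5+) and 8.3% (LGR5-) of all tested genes were called higher. The medians were 1.54 and 1.61, and the smallest P in LGR5+ cells were those of *Perp* (3.39 ± 0.24) and *Fas* (3.20 ± 0.24). The p53 target genes summed to 5912, 8020 and 5989 CPM in treated LGR5- replicates 1, 2 and 3. In treated LGR5+ replicates 1, 2 and 3 they summed to 6996, 7998 and 9128 CPM. In the same libraries the members summed to 2115, 1401 and 1157 CPM (LGR5-) and 2580, 1474 and 1393 CPM (LGR5+). A relation between these sums was not tested.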

How the data were processed

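RNA of sorted cells was isolated with a micro-scale column kit, amplified with a SMARTer (SMART-Seq v4) kit and sequenced as paired-end reads. Dead cells and CD45-positive leucocytes were excluded in the sort. The authors deposited 1 table of raw read counts per Ensembl gene for 12 libraries, without normalization. The submitters' processing notes name HISAT2, HISAT, TopHat2, HTSeq and the build mm8, with no role or version. The annotation and strand setting of the counting are not given in the sources used here, so reads of genes with overlapping exons may be shared or lost. GENCODE M21 paired 46488 of the 47069 identifiers with a symbol and also gave exon lengths and overlaps on GRCm38.

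The members and lists were chosen with earlier results of these data known. Counts were filtered by filterByExpr (16157 genes kept), scaled by TMM and fitted with the quasi-likelihood test of edgeR 4.0.16 (robust glmQLFit, glmQLFTest) in R 4.3.3, on 4 group means over all 12 libraries. P-values were adjusted by Benjamini-Hochberg over all genes tested, and genes were called at an adjusted P under 0.05. All adjusted P come from this test unless another is named. The standard error is the log2 fold change divided by the square root of F. The biological coefficient of variation was 26.6%. The fit was also run on simulated data with less spread than these libraries and no outlying library, which cannot show the effect of single libraries.

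Values per library are given for *Pcna*, *Gmnn*, *Cdc6* and *Cdt1*, for the member of each of 11 role groups with the smallest P after 5-FU in each population, and for the 3 members with the smallest P in each other comparison. Of other lists, the 2 genes with the smallest P are named, for further replication genes in each direction. *Rb1*, *Afp* and members given with a fold change only were named after their values were seen. The confidence intervals use the standard error of the edgeR fit and so include the spread between libraries. The limit of 3 reads for a gene without reads covers counting error only.

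Replicate numbers come from the sample titles. Deviations from the group means of libraries with the same number correlated at 0.57, 0.22 and 0.30 between LGR5+ and LGR5- cells after 5-FU, so these libraries were taken as pairs. In each other comparison at least 1 of the 3 correlations was not over 0.1. Alternatives were other filters and scalings, DESeq2 1.42.0, a fit of only the libraries compared, a replicate block, and libraries left out.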

Additional observations from a re-analysis of the deposited data

How the results depend on the processing

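Counts are of the 46 members called. In LGR5+ cells after 5-FU the count, 22 in the fit of all libraries, was 39 with the replicate block, 41 without both treated replicate 1 libraries (chosen after seeing the data) and 7 to 36 with 1 library left out. In LGR5- cells it was 36, and 20 to 41 with 1 library left out. With the replicate block it was 44. Deviations of same-numbered untreated and treated libraries correlated at -0.08, -0.17 and 0.02 in LGR5+ and at 0.05, 0.28 and 0.42 in LGR5- cells. Both LGR5- replicate 3 libraries have the high mitochondrial share. Whether these numbers mark pairs is not given in the sources used here. Between the populations after 5-FU the block on the treated libraries alone, added after seeing the data, called 1 member where the other fits called 0. For all genes in that comparison the numbers were 0 in the fit of all libraries, 11 without a filter on low counts, 79 by DESeq2 and 451 with that block. All genes called after 5-FU numbered 2590 in LGR5+ cells, 4045 from only the libraries compared 4448 without both LGR5- replicate 3 libraries and 1373 to 2488 with 1 library left out. In LGR5- cells they numbered 2489, 1282 from only the libraries compared and 1562 to 3418 with 1 library left out. The single member that did not overlap between untreated populations became 0 with DESeq2 size factors and 2 with library size only. Member counts under the other filters, scalings and tests were within 1.5 times the reported ones, and no log2 fold change after 5-FU changed sign. The block changed no other call between the populations or of the difference between responses. The cause of these shifts was not tested. A fit of only the libraries compared cannot differ from the reported one for the difference between responses. The fewest reads over all libraries were those of *Fen1*, 125, and *Orc1*, 841.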
